A study of Homo sapiens with 4 samples.

Results

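The constitutive proteasome subunits are the genes of the protein-degrading complex that nearly all cells build. The 32 genes described here were taken from a list of names: 14 subunits of the 20S core (PSMA1 to PSMA7 and PSMB1 to PSMB7), 17 subunits of the 19S regulator (6 PSMC ATPases and 11 PSMD subunits) and the maturation factor POMP. They are 32 of the 60649 gene rows of the count table, and the rule that lists them uses no measured value. RNA was sequenced from FaDu, an established human cell line derived from a hypopharyngeal squamous carcinoma. These cells carried a construct that overexpressed TINCR joined to HA and FLAG epitope tags (2 libraries) or an empty vector (2 libraries). The promoter of the construct, and whether the cells were clones or pools, were not stated in the descriptions used. The replicates are described as technical, so every p-value measures only the spread between these libraries. The series allows 1 comparison, which asks how transcript levels with the tagged TINCR construct differ from those with the empty vector.

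The proteasome degrades proteins that carry chains of ubiquitin. Its core is a barrel of stacked rings. The outer alpha rings (PSMA subunits) gate the entrance, and the inner beta rings (PSMB subunits) hold the protease active sites. The regulator caps the barrel. In its base, ATPases (PSMC subunits) unfold the substrate and thread it into the core. In its lid, PSMD14 cuts off the ubiquitin chain. Squamous carcinoma cells, like other dividing cells, depend on this complex to turn over cell cycle regulators.

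Total counts were 18151424 and 22331602 in the TINCR-HA-FLAG libraries and 17069533 and 17315648 in the empty vector libraries. Genes of the mitochondrial genome accounted for 11.4% and 8.66% of reads with TINCR-HA-FLAG and 9.43% and 7.58% with the empty vector. TINCR had 1921 and 2943 counts with TINCR-HA-FLAG, against 68 and 64 with the empty vector, a log2 fold change of 4.93 (adjusted p = 7.18e-07 by the quasi-likelihood test of edgeR, standard error 0.17). The 8 squamous epithelial markers summed to 7263 and 8512 CPM (read counts scaled to a common library size) with TINCR-HA-FLAG and to 8529 and 9757 CPM with the empty vector. The groups did not overlap in this sum, by a narrow margin (8512 against 8529 CPM). KRT5 was its largest part (mean 3575 CPM with TINCR-HA-FLAG, 4457 CPM with the empty vector). KRT14, a small part (mean 55.1 and 117 CPM), was called lower (log2 fold change -1.08, adjusted p = 0.014, edgeR). SFN stood at -0.71 and CDH1 at 0.23. The part of this sum in the results below was not tested. The 4 fibroblast markers summed to 44.1 and 44.4 CPM with TINCR-HA-FLAG and to 38.1 and 34.7 CPM with the empty vector, and the 3 endothelial markers to 14.1 and 13.4 CPM with TINCR-HA-FLAG and to 10.5 and 11.1 CPM with the empty vector. These sums did not overlap either, and their part was not tested. COL1A1 made up most of the fibroblast sum (mean 33.6 CPM with TINCR-HA-FLAG, 25.5 CPM with the empty vector), while COL1A2 stood at -0.10. VWF made up most of the endothelial sum (mean 12.8 and 9.74 CPM). PECAM1 (mean 0.307 and 0.352 CPM) and CLDN5 (mean 0.690 and 0.732 CPM) were scarcely detected. The 5 immune markers summed to 7 and 10 counts with TINCR-HA-FLAG and to 8 and 5 counts with the empty vector. PSMD2, PSMD11 and PSMA4 had the highest CPM of the members, and every member passed the filter on low counts.

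No proteasome gene passed the test of the groups in either direction. None of the 32 had an adjusted p under 0.05 (quasi-likelihood test of edgeR, Benjamini-Hochberg over 18771 genes). Of all genes tested, 0.538% were called, 0.442% higher and 0.0959% lower with TINCR-HA-FLAG. Adjusted p ranged from 0.139 for PSMD1 to 0.994 for PSMC2. DESeq2 called none of the members and 0.998% of the genes it tested. At an unadjusted p under 0.05 there were 4 members, PSMD1, PSMD14, PSMC6 and PSMC1, all lower with TINCR-HA-FLAG and all in the regulator. Of all genes tested, 10.2% passed that unadjusted p, and 4.31% passed it on the lower side.

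The differences were small and mostly on the lower side. The log2 fold change (TINCR-HA-FLAG over empty vector) was negative in 28 of 32 members, where 49.3% of all genes tested and 57.5% of the better expressed genes (mean log2 CPM of 5 or more) were negative. It was negative in 30 members with RLE size factors or DESeq2 and in 26 with library totals. The median over the 32 was -0.10, a fold of 0.93, against 0.0042 over all genes tested and -0.03 over the better expressed genes. Both TINCR-HA-FLAG libraries lay below both empty vector libraries in 11 members, where 17.9% of all genes did so, and above them in PSMA1 alone, where 21.7% did. In either direction, 39.6% of all genes did not overlap. The other 20 members overlapped between the groups. These counts depended on single libraries. Without TINCR-HA-FLAG replicate 1, 16 of the 32 were negative and their median was -0.0086. Without TINCR-HA-FLAG replicate 2, 31 were negative with a median of -0.23, and without empty vector replicate 1, 29 with a median of -0.20. Without empty vector replicate 2, 22 were negative with a median of -0.06. In bulk RNA, fewer cells with a transcript and less of it per cell cannot be told apart.

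**Figure D1:**
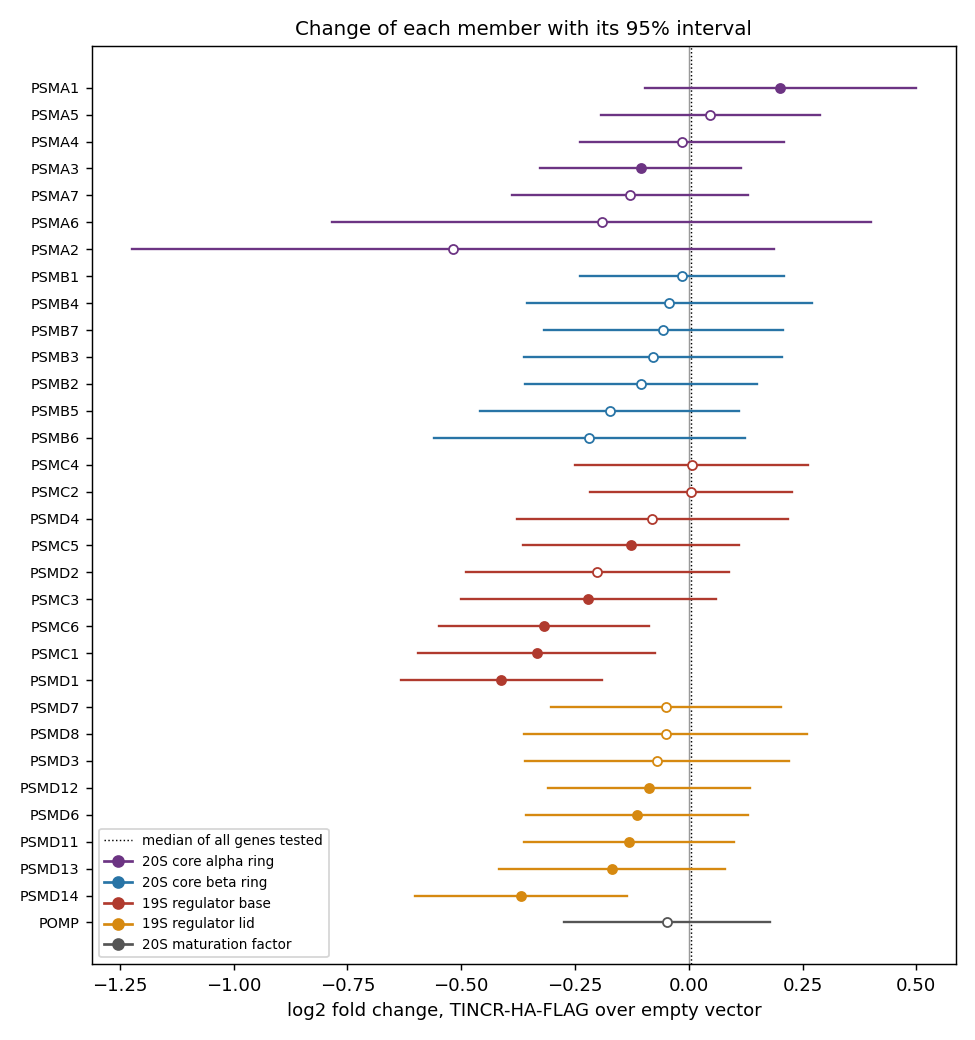
Log2 fold change of each of the 32 members (TINCR-HA-FLAG over empty vector, horizontal axis) with its 95% interval, grouped by ring, base, lid and POMP. Filled points mark members whose groups did not overlap, and the dotted line is the median of all genes tested. Most points sit left of 0, and PSMD1, PSMD14, PSMC6 and PSMC1 have intervals that stay below it.

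The alpha ring subunits form the outer gates of the core. Their 7 log2 fold changes ran from -0.52 to 0.20, with a median of -0.11 and 5 negative, where 49.3% of all genes tested were negative. PSMA3, a subunit of this ring, had 113 and 117 CPM with TINCR-HA-FLAG and 122 and 125 CPM with the empty vector. Its groups did not overlap, at a log2 fold change of -0.11 (adjusted p = 0.806, edgeR). PSMA7, the alpha subunit with the highest level per length, had 128 and 145 CPM with TINCR-HA-FLAG and 138 and 161 CPM with the empty vector. The groups overlapped, and the log2 fold change was -0.13 (standard error 0.12, adjusted p = 0.792, edgeR). With empty vector replicate 1 left out it was -0.28, and with replicate 2 of that group left out -0.0099.

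The alpha subunits at the ends of that range were both counted at low levels. PSMA1 had 21.6 and 20.6 CPM with TINCR-HA-FLAG, against 17.6 and 19.1 CPM with the empty vector. Both TINCR-HA-FLAG libraries were higher, at a log2 fold change of 0.20 (standard error 0.13, adjusted p = 0.695, edgeR). PSMA2 had 3.96 and 2.75 CPM with TINCR-HA-FLAG, against 5.84 and 3.66 CPM with the empty vector. Its libraries overlapped between the groups, and the log2 fold change was -0.52 (standard error 0.32, adjusted p = 0.657, edgeR). PSMA6 was also low, at 5.76 and 5.41 CPM with TINCR-HA-FLAG and 7.94 and 4.78 CPM with the empty vector, with overlap. Without empty vector replicate 1, PSMA1 stood at 0.10, PSMA2 at -0.18 and PSMA6 at 0.18. PSMA4 and PSMA5 had log2 fold changes of -0.02 and 0.05, and PSMA4 stood at 0.0029 with library totals.

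The beta ring carries the active sites. All 7 beta subunits had negative log2 fold changes, from -0.22 to -0.02 with a median of -0.08, and in none were the groups apart. Of the better expressed genes of the whole table, 57.5% were negative and 24.8% had both TINCR-HA-FLAG libraries lower. With library totals PSMB1 was positive, at 0.0027. PSMB6, the caspase-like subunit, had 87.2 and 122 CPM with TINCR-HA-FLAG and 111 and 132 CPM with the empty vector. In each group replicate 2 was the higher library, and the log2 fold change was -0.22 (standard error 0.15, adjusted p = 0.715, edgeR). PSMB5, the chymotrypsin-like subunit bound by the drug bortezomib, had 86.1 and 107 CPM with TINCR-HA-FLAG and 101 and 117 CPM with the empty vector. These groups overlapped too, at a log2 fold change of -0.17 (standard error 0.13, adjusted p = 0.730, edgeR). PSMB7, the trypsin-like subunit, had 96.6 and 109 CPM with TINCR-HA-FLAG and 98.1 and 116 CPM with the empty vector, a log2 fold change of -0.06 (adjusted p = 0.929, edgeR). Without TINCR-HA-FLAG replicate 1, these stood at 0.0052 for PSMB6, -0.02 for PSMB5 and 0.04 for PSMB7, and without TINCR-HA-FLAG replicate 2 at -0.49, -0.35 and -0.15.

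The beta subunits without an active site differed by log2 fold changes between -0.10 and -0.02. PSMB3, the member with the highest level per length, had 123 and 156 CPM with TINCR-HA-FLAG and 140 and 155 CPM with the empty vector. The groups overlapped, at a log2 fold change of -0.08 (standard error 0.13, adjusted p = 0.905, edgeR). PSMB1, PSMB2 and PSMB4 had log2 fold changes of -0.02, -0.10 and -0.04. POMP, which escorts the maturing core and is degraded on its completion, had 70.3 and 75.3 CPM with TINCR-HA-FLAG and 75.1 and 75.5 CPM with the empty vector. Its groups overlapped by a narrow margin, and the log2 fold change was -0.05 (standard error 0.10, adjusted p = 0.927, edgeR).

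**Figure D2:**
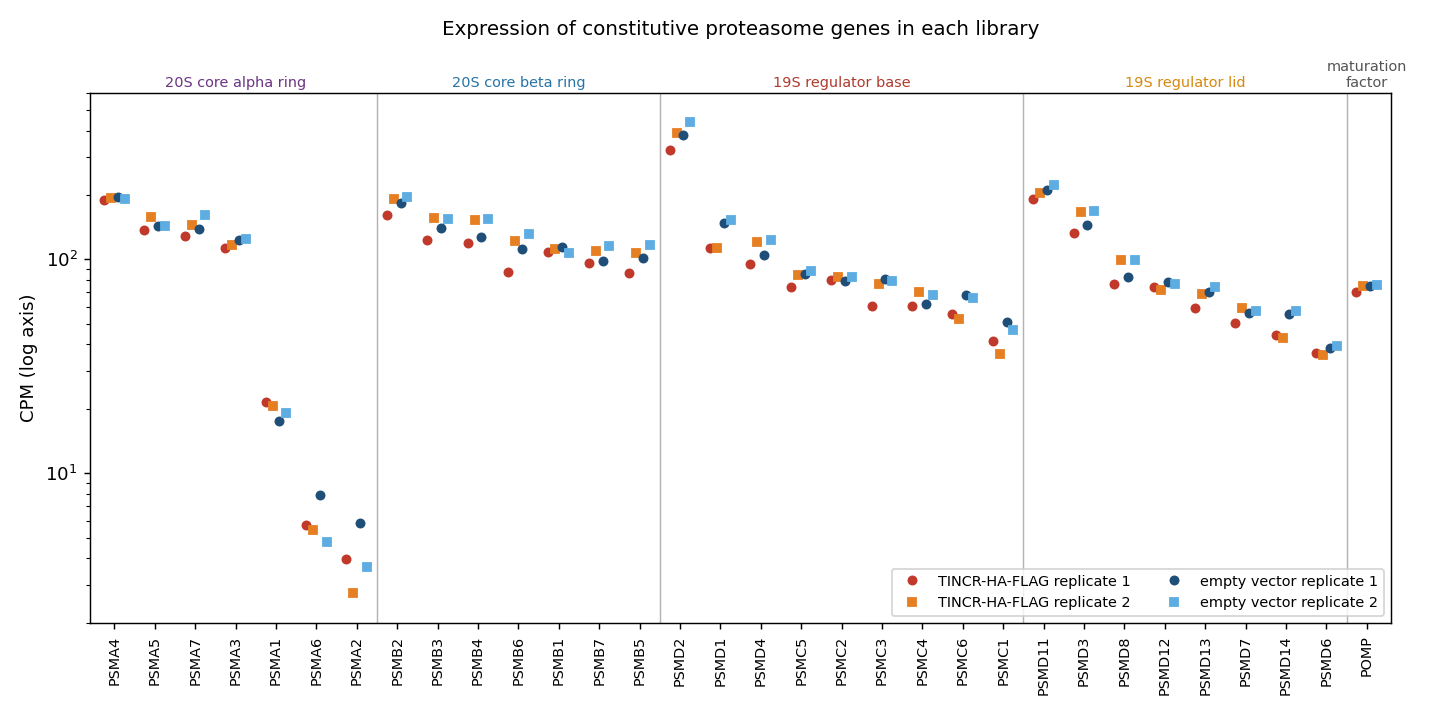
CPM of the members in each library, on a log axis, with TINCR-HA-FLAG left of the empty vector. PSMA2 and PSMA6 lie below 10 CPM in every library, and PSMD2 is the highest member, at 323 and 390 CPM with TINCR-HA-FLAG and 381 and 439 CPM with the empty vector.

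The regulator base held 3 of the 4 members with an unadjusted p under 0.05 in edgeR. Of all genes tested, 10.2% had such a p, and 4.31% had it on the lower side. PSMD1, the large scaffold on which other base subunits sit, had 113 and 113 CPM with TINCR-HA-FLAG, against 148 and 153 CPM with the empty vector. Both TINCR-HA-FLAG libraries were lower and the replicates were close to each other. The log2 fold change was -0.41 (standard error 0.10), a fold of 0.751 (unadjusted p = 0.0019, adjusted p = 0.139, edgeR). PSMC6, an ATPase, had 55.6 and 52.3 CPM with TINCR-HA-FLAG, against 68.5 and 66.0 CPM with the empty vector. The groups did not overlap, at a log2 fold change of -0.32 (standard error 0.10, unadjusted p = 0.0115, adjusted p = 0.302, edgeR).

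PSMC1, another ATPase, is given because of its unadjusted p, a choice made after its values were seen. It had 41.4 and 36.3 CPM with TINCR-HA-FLAG, against 50.9 and 47.0 CPM with the empty vector. Both TINCR-HA-FLAG libraries were lower, at a log2 fold change of -0.33 (standard error 0.12, unadjusted p = 0.0166, adjusted p = 0.346, edgeR). Its principal transcript shares 82.2% of its bases with NRDE2 on the opposite strand, and the sources used here do not give the strand setting of the counting. PSMC1 also has 13 annotated pseudogene rows, whose counts came to 24.5% and 32.3% of its own with TINCR-HA-FLAG and to 21.2% and 24.1% with the empty vector. Reads may therefore be split between copies, and its value is uncertain.

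PSMD2, which docks shuttle factors that bring ubiquitinated proteins, had the highest level per length of the base. It had 323 and 390 CPM with TINCR-HA-FLAG and 381 and 439 CPM with the empty vector. The groups overlapped, at a log2 fold change of -0.20 (standard error 0.13, adjusted p = 0.679, edgeR). The ATPases differed among themselves. PSMC2 and PSMC4 had log2 fold changes of 0.0049 and 0.0063, with 95% intervals from -0.22 to 0.23 and from -0.25 to 0.26, and both turned negative with RLE size factors (-0.014 and -0.013) and DESeq2 (-0.018 and -0.017). PSMC3 and PSMC5 had log2 fold changes of -0.22 and -0.13, and both TINCR-HA-FLAG libraries were lower in each. The principal transcript of PSMC5 shares 27.2% of its bases with FTSJ3 on the opposite strand, and the strand setting is not known. PSMD4, a ubiquitin receptor, stood at -0.08. Without TINCR-HA-FLAG replicate 1, the log2 fold change was -0.07 in PSMD2, -0.05 in PSMC3 and -0.04 in PSMC5, and without TINCR-HA-FLAG replicate 2 it was -0.35, -0.42 and -0.22. Over the 9 base subunits, 7 were negative, 5 had both TINCR-HA-FLAG libraries lower, and the median was -0.20. Of the better expressed genes of the whole table, 57.5% were negative and 24.8% had both lower.

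In the lid, all 8 subunits had negative log2 fold changes, 5 of them with both TINCR-HA-FLAG libraries lower, and the median was -0.10. The same shares of the better expressed genes, 57.5% negative and 24.8% with both lower, stand beside these counts. PSMD14, the deubiquitinase, had 44.3 and 43.0 CPM with TINCR-HA-FLAG, against 55.3 and 57.5 CPM with the empty vector. Both TINCR-HA-FLAG libraries were lower, by more than the replicates of a group differed. The log2 fold change was -0.37 (standard error 0.11), a fold of 0.775 (unadjusted p = 0.0054, adjusted p = 0.219, edgeR). PSMD7, the structural partner of PSMD14, stood at -0.05, with 50.5 and 59.0 CPM with TINCR-HA-FLAG and 56.0 and 57.6 CPM with the empty vector. The principal transcript of PSMD7 shares 50.4% of its bases with another gene on the opposite strand, and the strand setting is not known.

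PSMD13, a structural lid subunit, had 59.5 and 69.1 CPM with TINCR-HA-FLAG, against 70.6 and 74.1 CPM with the empty vector. The groups did not overlap, at a log2 fold change of -0.17 (standard error 0.11, adjusted p = 0.688, edgeR). The principal transcript of PSMD13 shares 15.9% of its bases with SIRT3 on the opposite strand. PSMD3, the lid subunit with the highest level per length, had 133 and 166 CPM with TINCR-HA-FLAG and 145 and 168 CPM with the empty vector, and these overlapped. PSMD6, PSMD11 and PSMD12 had log2 fold changes of -0.11, -0.13 and -0.09 without overlap, and PSMD8 stood at -0.05 with overlap. Without TINCR-HA-FLAG replicate 1, PSMD13 stood at -0.06 and PSMD11 at -0.08, and PSMD3, PSMD7 and PSMD8 were positive (0.09, 0.06 and 0.12). Without TINCR-HA-FLAG replicate 2, PSMD13 stood at -0.29.

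The promoters of these 4 regulator genes are shown because the 4 had the lowest unadjusted p of the members. The sequences are from RefSeq (GRCh38.p14), 250 bases before to 50 after the start, 5′ to 3′ on the gene's strand, which is plus for all 4. The windows are chr2:231056617-231056916 for PSMD1, chr2:161308175-161308474 for PSMD14, chr14:52706950-52707249 for PSMC6 and chr14:90256303-90256602 for PSMC1. Capitals mark matches, on either strand, to TGACNNNGC (the antioxidant response element that NFE2L1 and NFE2L2 bind, known to serve proteasome genes), CCAAT, the ETS core CGGAAG or TGANTCA.
PSMD1: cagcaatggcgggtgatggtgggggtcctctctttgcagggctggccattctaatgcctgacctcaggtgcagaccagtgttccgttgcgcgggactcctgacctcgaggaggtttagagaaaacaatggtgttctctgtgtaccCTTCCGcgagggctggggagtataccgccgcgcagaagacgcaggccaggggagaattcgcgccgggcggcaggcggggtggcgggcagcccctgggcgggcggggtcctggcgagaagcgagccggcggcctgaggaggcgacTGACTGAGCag
PSMD14: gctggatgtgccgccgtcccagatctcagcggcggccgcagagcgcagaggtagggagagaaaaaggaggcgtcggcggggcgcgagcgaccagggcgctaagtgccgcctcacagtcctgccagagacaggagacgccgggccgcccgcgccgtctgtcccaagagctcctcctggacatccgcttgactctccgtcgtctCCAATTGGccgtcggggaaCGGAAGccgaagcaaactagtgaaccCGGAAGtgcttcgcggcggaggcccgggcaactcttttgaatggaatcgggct
PSMC6: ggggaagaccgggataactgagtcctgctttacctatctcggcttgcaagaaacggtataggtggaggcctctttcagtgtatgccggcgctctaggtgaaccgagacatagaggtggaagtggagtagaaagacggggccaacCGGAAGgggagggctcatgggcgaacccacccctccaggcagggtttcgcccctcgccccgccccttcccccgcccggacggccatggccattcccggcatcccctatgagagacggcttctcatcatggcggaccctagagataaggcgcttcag
PSMC1: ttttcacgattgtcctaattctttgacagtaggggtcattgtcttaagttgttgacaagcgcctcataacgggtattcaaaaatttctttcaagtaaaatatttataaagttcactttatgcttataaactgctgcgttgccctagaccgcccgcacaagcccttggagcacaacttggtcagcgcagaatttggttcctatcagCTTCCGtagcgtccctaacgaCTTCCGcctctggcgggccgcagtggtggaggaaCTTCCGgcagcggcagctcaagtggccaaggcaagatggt
All 4 promoters hold the ETS core, and only that of PSMD1 holds TGACNNNGC. That of PSMD14 also has CCAAT on both strands, in overlapping matches.

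Promoters were found for 27 of the 32 members, and the missing entries are PSMA7, PSMB1, PSMB6, PSMB7 and PSMD4. TGACNNNGC was present in 7 of the 27 (25.9%), and in 16.1% of all 27305 genes with a promoter of the same length. It was in 2 of 10 core genes and 5 of 16 regulator genes with a promoter. The match of PSMD1 is in its promoter above, and those of the other 6 genes, with a second in PSMD3, are shown with their flanks, on the gene's strand, with the match in capitals, since NFE2L1 is a known activator of proteasome genes. Those of PSMA4, PSMB3 and PSMD12 and the first of PSMD3 read in the forward direction, and those of PSMC4 and PSMC5 and the second of PSMD3 read in reverse. The windows are chr15:78540649-78540679 for PSMA4, chr17:38752626-38752656 for PSMB3, chr19:39971181-39971211 for PSMC4, chr17:63827653-63827683 for PSMC5, chr17:39980759-39980789 and chr17:39980829-39980856 for PSMD3 (all plus strand) and chr17:67366723-67366753 for PSMD12 (minus strand), in GRCh38.p14.
PSMA4: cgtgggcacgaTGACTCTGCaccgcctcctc
PSMB3: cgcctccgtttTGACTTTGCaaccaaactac
PSMC4: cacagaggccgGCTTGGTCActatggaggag
PSMC5: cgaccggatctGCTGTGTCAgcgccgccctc
PSMD3: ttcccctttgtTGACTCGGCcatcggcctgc
PSMD3 second match: ggtttgcagctGCTCCGTCAtcgtgcgg
PSMD12: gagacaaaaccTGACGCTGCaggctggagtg
The ETS core was present in 19 of 27 member promoters (70.4%), against 22.6% of all genes, and CCAAT in 15 (55.6%), against 39.7%. TGANTCA was present in 2 (7.41%), against 9.37% of all genes. The shares of all genes were not restricted to genes expressed in these cells, and no comparison with other widely expressed genes was made. A match describes these letters in this window and does not show binding.

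Core and regulator can be compared by their counts and by their summed levels. In the core 12 of 14 members were negative and 1, PSMA3, had both TINCR-HA-FLAG libraries lower, while in the regulator 15 of 17 were negative and 10 had both lower. Of all genes, 17.9% had both lower, and of the better expressed genes, 24.8%. Overlap also depends on the replicates, since replicate 2 was above replicate 1 in both groups in 20 members. Set against the empty vector library of the same number, 8 core and 14 regulator members were lower in both replicates. The labels do not pair the numbers, and the share of all genes lower in this way was not computed. The median log2 fold change was -0.09 in the core and -0.13 in the regulator, and the core median minus the regulator median was 0.04. The difference between the medians was not tested, and it ranged from 0.03 to 0.07 when each library was left out. The core median itself was 0.0088 without TINCR-HA-FLAG replicate 1 and -0.19 without TINCR-HA-FLAG replicate 2. The regulator median moved as well, to -0.062 without TINCR-HA-FLAG replicate 1 and to -0.25 without TINCR-HA-FLAG replicate 2.

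Summed over the members, the core had 1381 and 1591 CPM with TINCR-HA-FLAG and 1506 and 1623 CPM with the empty vector, and these overlapped. The regulator had 1570 and 1773 CPM with TINCR-HA-FLAG, against 1797 and 1943 CPM with the empty vector, and these did not. All members together took 0.306% and 0.342% of the counts with TINCR-HA-FLAG and 0.339% and 0.357% with the empty vector. The 2 groups overlapped in this share.

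Levels per length are reads per kilobase, scaled to sum to 1e+06 in each library. By exon union length the regulator sum was 0.611 and 0.593 of the core sum with TINCR-HA-FLAG, against 0.630 and 0.615 with the empty vector. Both TINCR-HA-FLAG libraries were lower, and the SD within a group was 0.013 with TINCR-HA-FLAG and 0.011 with the empty vector. With principal transcript lengths the ratio was 0.619 and 0.607 with TINCR-HA-FLAG, against 0.641 and 0.632 with the empty vector. The ratio of medians, by exon union length, was 0.517 and 0.493 with TINCR-HA-FLAG and 0.497 and 0.528 with the empty vector, and there the groups overlapped. By principal transcript length the ratio of medians was 0.412 and 0.364 with TINCR-HA-FLAG, against 0.438 and 0.417 with the empty vector. On that length the groups did not overlap. By exon union length the base sum was 1.64 and 1.65 times the lid sum with TINCR-HA-FLAG, against 1.73 and 1.71 times with the empty vector. On principal transcript length it was 1.35 and 1.36 times with TINCR-HA-FLAG, against 1.42 and 1.40 times with the empty vector. With 2 libraries in each group the smallest 2-sided exact permutation p is 0.333, so that test cannot reach a threshold of 0.05 for any such ratio, and no other test of the ratios was run.

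**Figure D3:**
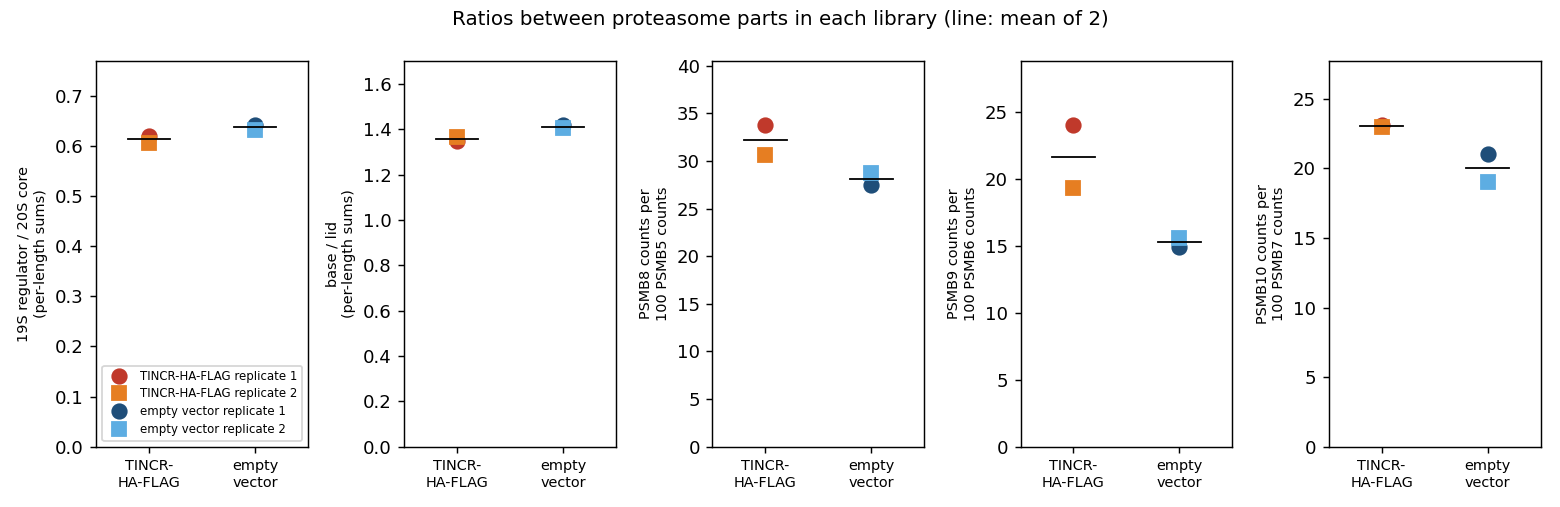
Ratios in each library (points) with the mean of each group (line), TINCR-HA-FLAG left of the empty vector: summed levels per principal transcript length of regulator over core and of base over lid, and counts of PSMB8, PSMB9 and PSMB10 per 100 counts of PSMB5, PSMB6 and PSMB7. The TINCR-HA-FLAG libraries lie below the empty vector libraries in the ratios of summed levels and above them in the ratios of immune to constitutive subunits.

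Levels per length differed widely between members of 1 complex. On principal transcript length the highest mean level was that of PSMB3 (439 on that scale), then PSMB4 and PSMA7 (340 each) and PSMB6 (314). The lowest were PSMA2 (6.48), PSMA6 (13.8), PSMC1 (23.4) and PSMA1 (31.0). The 14 core subunits, which the complex holds in equal numbers, spanned 67.8-fold in mean level, and 11 of them spanned 4.77-fold once PSMA1, PSMA2 and PSMA6 were left out. Those 3 are the members that share exon bases with another protein-coding gene on the same strand: 53.2% of the principal transcript for PSMA1, 52.5% for PSMA2 and 81.0% for PSMA6. The genes that share them were listed at 5 counts or fewer in every library. Annotated pseudogenes of PSMA6 had counts of 23.6% and 38.3% of its own with TINCR-HA-FLAG and 21.3% and 48.1% with the empty vector, and those of PSMA2 17.8% and 9.84% with TINCR-HA-FLAG and 4.0% and 6.45% with the empty vector. The part of these overlaps and copies in the low counts was not tested. Leaving the 3 out, the core median was -0.08.

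**Figure D4:**
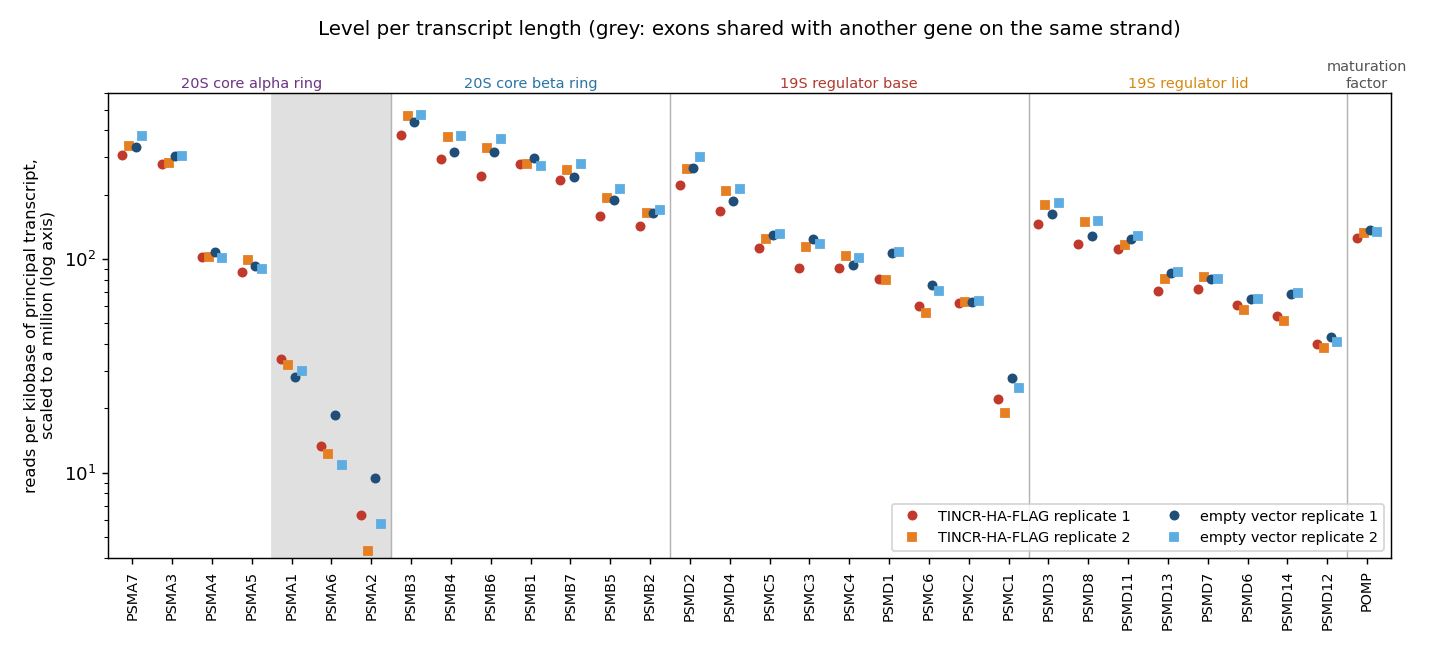
Level of each member per principal transcript length in each library (reads per kilobase, scaled to a common sum), on a log axis, TINCR-HA-FLAG left of the empty vector, with PSMA1, PSMA2 and PSMA6 on grey. PSMB3 is the highest, with a mean of 439, and PSMA2 the lowest, with a mean of 6.48.

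The immune subunits PSMB8, PSMB9 and PSMB10 take the place of PSMB5, PSMB6 and PSMB7 in the immunoproteasome, which is induced by interferon. PSMB9 had 21.0 and 23.5 CPM with TINCR-HA-FLAG, against 16.6 and 20.6 CPM with the empty vector. Both TINCR-HA-FLAG libraries were higher, at a log2 fold change of 0.26 (standard error 0.15, adjusted p = 0.632, edgeR). PSMB10 had 22.3 and 25.1 CPM with TINCR-HA-FLAG, against 20.6 and 22.1 CPM with the empty vector. It too did not overlap, at a log2 fold change of 0.15 (adjusted p = 0.779, edgeR), and its principal transcript shares 45.3% of its bases with a gene on the same strand. PSMB8 had 29.1 and 32.7 CPM with TINCR-HA-FLAG and 27.8 and 33.5 CPM with the empty vector, with overlap, and its log2 fold change was 0.01, or -0.0059 with RLE size factors and -0.011 with DESeq2. PSMB11 and PSMA8, the thymic and testicular core subunits, had at most 1 count in any library. Without empty vector replicate 1, PSMB9 stood at 0.07 and PSMB10 at 0.07, and without empty vector replicate 2 at 0.42 and 0.21.

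The ratio of each immune subunit to its partner does not depend on the scaling of libraries. PSMB9 had 24.0 (95% counting interval 21.5 to 26.9) and 19.3 (17.6 to 21.2) counts per 100 of PSMB6 with TINCR-HA-FLAG, against 14.9 (13.1 to 16.9) and 15.6 (13.9 to 17.5) with the empty vector. PSMB8 had 33.8 and 30.6 counts per 100 of PSMB5 with TINCR-HA-FLAG and 27.5 and 28.7 with the empty vector. PSMB10 had 23.1 and 23.0 counts per 100 of PSMB7 with TINCR-HA-FLAG and 21.0 and 19.01 with the empty vector. The groups did not overlap in any of the 3 ratios, and 39.6% of all genes tested did not overlap in CPM in either direction. Counting intervals for PSMB8 did overlap, at 28.2 to 33.3 in TINCR-HA-FLAG replicate 2 and 26.1 to 31.5 in empty vector replicate 2. Those for PSMB10 overlapped too, at 20.9 to 25.2 in TINCR-HA-FLAG replicate 2 and 18.7 to 23.6 in empty vector replicate 1. The exact intervals cover counting error only. Per length, by principal transcripts, the 3 immune subunits summed to 0.265 and 0.237 of their constitutive partners with TINCR-HA-FLAG, against 0.204 in each empty vector library. The activator caps PSME1 and PSME2 had log2 fold changes of 0.15 and 0.05 (adjusted p = 0.735 and 0.922, edgeR), and the nuclear activator PSME3 stood at -0.08 (adjusted p = 0.873, edgeR). PSME1 stood at 0.03 with empty vector replicate 1 left out and at 0.24 with replicate 2 of that group left out.

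The genes that build, serve and feed the complex were described by the same counts, and none of the 40 tested was called by edgeR or DESeq2. MAFG alone had an unadjusted p under 0.05 in edgeR. Across all genes tested, 49.3% were negative, 17.9% had both TINCR-HA-FLAG libraries lower, and 10.2% had an unadjusted p under 0.05 in edgeR. Of 8 assembly chaperones, 3 were negative, with a median of 0.05. PSMG1, a chaperone of the alpha ring, had 16.2 ± 0.415 CPM with TINCR-HA-FLAG, against 19.5 ± 0.683 CPM with the empty vector (SD, n = 2 each), with no overlap and a log2 fold change of -0.27 (adjusted p = 0.566, edgeR). PAAF1, a chaperone of the regulator, stood at 0.25 (adjusted p = 0.726, edgeR). Of 4 further regulator subunits and bound deubiquitinases, 3 were negative, with a median of -0.02. SEM1, a small lid subunit, stood at 0.11 and ADRM1, a ubiquitin receptor, at -0.09.

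All 10 regulators of proteasome gene transcription were negative, or 9 with library totals, where NFE2L1 was positive. Their median was -0.14, and 1 of them, MAFG, had both TINCR-HA-FLAG libraries lower. Across all genes tested, 49.3% were negative and 17.9% had both lower, and of the better expressed genes 57.5% were negative. MAFG, a small MAF protein that pairs with NFE2L1 and NFE2L2, had 78.0 and 76.7 CPM with TINCR-HA-FLAG, against 94.7 and 105 CPM with the empty vector. Its log2 fold change was -0.37 (standard error 0.11, adjusted p = 0.211, edgeR). NFE2L1 stood at -0.0048 and DDI2, the protease that activates NFE2L1, at -0.17. Of 10 tested ubiquitin genes, activating enzymes and shuttle factors, 8 were negative, with a median of -0.05. Of the 5 alternative caps and inhibitors, 3 were negative, with a median of -0.04.

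The 32 members lie on 14 chromosomes, with 6 on chromosome 17 and 5 on chromosome 14. PSMD1 (GRCh38 chromosome 2, 231056864 to 231172827, plus strand) lies in a stretch where other genes were lower too. Of 19 tested genes within 1 Mb, 15 were negative, 8 had both TINCR-HA-FLAG libraries lower, 6 had an unadjusted p under 0.05 in edgeR, none was called by edgeR, and their median was -0.26. DESeq2 called NCL alone (adjusted p = 0.0169), and it called 0.998% of all the genes it tested. Across all genes tested by edgeR, 49.3% were negative and 17.9% had both TINCR-HA-FLAG libraries lower. An unadjusted p under 0.05 in edgeR was reached by 10.2% of them, and by 4.31% on the lower side. Among the neighbours NCL, the nucleolar protein nucleolin, stood at -0.46, CAB39 at -0.42 and PTMA at -0.40, which were picked after their values were seen. PSMD14 (chromosome 2, 161308038 to 161411717, plus strand) had 7 neighbours with a median of -0.06. The 13 neighbours of PSMC6 (chromosome 14, 52707172 to 52728587, plus strand) had a median of -0.05, and the 21 of PSMC1 (chromosome 14, 90256495 to 90275429, plus strand) had a median of 0.13. Across the 32 members, the log2 fold change and the median of the neighbours had a Pearson r of 0.30 and a Spearman rho of 0.41, as a description, since members near each other share neighbours and all share the 4 libraries.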

How the data were processed

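The authors deposited a table of raw read counts per Ensembl gene for each library. STAR 2.7.9a, bcl2fastq 2.20.0.422, DESeq2 1.32.0 and the build GRCh38 are named in the submitters' processing notes. How reads were counted, with which strand setting and annotation release, is not given in the sources used here. Columns were matched to samples on cell line, construct and replicate number, and 12 other library columns were not used. Symbols came from a reference table (60463 rows matched) and positions from GENCODE v29 (58381 rows).

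After filterByExpr had left 18771 genes, TMM-normalized counts were tested with edgeR 4.0.16 (quasi-likelihood, R 4.3.3), and a gene was called at a Benjamini-Hochberg adjusted p under 0.05. CPM values are scaled by TMM. Groups came from the sample titles. Levels per length used the exon union, and principal transcripts as an alternative added after the data were seen. Depth ranged from 17069533 to 22331602 counts. No molecular identifiers are described, so copies of a molecule may be read more than once and the intervals cover counting error only. The members and lists were chosen with earlier results of these data known. Named genes were those with the lowest unadjusted p or highest level per length in each list, the active-site and immune subunits, POMP, PSME1 and PSME2. PSMA3, PSMA6, PSMC1 and PSMD7 were given per-library values, and NFE2L1 and the neighbours of PSMD1 named, after their values were seen. The genes this rule takes from the ubiquitin list are not reported here. DESeq2 1.42.0 and other settings were tried as alternatives. Symbols were matched to promoters from RefSeq GRCh38.p14.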

Additional observations from a re-analysis of the deposited data

How the results depend on the processing

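Log2 fold changes are TINCR-HA-FLAG over empty vector. Under RLE size factors, library totals, DESeq2, the other filters and the legacy dispersion estimate no member was called. The count of negative members was 30 with RLE and DESeq2 and 26 with library totals. Signs turned for PSMC2 (-0.014), PSMC4 (-0.013) and PSMB8 (-0.0059) with RLE, for the same 3 with DESeq2 (-0.018, -0.017 and -0.011) and for PSMA4 (0.0029) and PSMB1 (0.0027) with library totals. Without the low-count filter 53 genes were called, in place of 101. With the replicate block 2634 genes (14%) and 8 members were called: PSMD14, PSMD1, PSMD2, PSMC3, PSMB5, PSMC6, PSMC1 and PSMB6. The labels do not say that a number pairs libraries, and there are 2 pairs. The difference of replicate 1 and replicate 2 correlated between groups at r = 0.37 over all genes and 0.75 over the members. Replicate 2 was above replicate 1 in both groups in 20 members and below it in both in 5, and the mitochondrial share was higher in replicate 1 of each group, whose part was not tested. Leaving out each library gave 124 to 386 called genes, 0 called members, 16 to 31 negative members, core medians of -0.19 to 0.0088, regulator medians of -0.25 to -0.062 and differences of 0.03 to 0.07. Signs turned within these ranges: PSMA4 -0.038 to 0.0074, PSMA5 -0.064 to 0.15, PSMA6 -0.51 to 0.18, PSMB1 -0.056 to 0.010, PSMB2 -0.23 to 0.016, PSMB3 -0.26 to 0.085, PSMB4 -0.24 to 0.13, PSMB6 -0.49 to 0.0052, PSMB7 -0.21 to 0.076, PSMC2 -0.063 to 0.037, PSMC4 -0.11 to 0.11, PSMD3 -0.25 to 0.087, PSMD4 -0.27 to 0.086, PSMD7 -0.17 to 0.063, PSMD8 -0.25 to 0.12, POMP -0.11 to 0.0057, ADRM1 -0.20 to 0.015, PSMB8 -0.16 to 0.16, PSME2 -0.035 to 0.13. Without PSMC1 the regulator median was -0.12. Depth was lowest for PSMA2 and PSMA6, below 10 CPM in every library.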

Other observations

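Of the 32 members, 31 had a log2 fold change below the median of their neighbours within 1 Mb, PSMA1 being the exception, while 21 of the neighbour medians were positive and 11 negative. The share of all genes that lie below the median of their own neighbours was not computed, so the count of 31 has no background beside it. The log2 fold changes also depended on single libraries: without TINCR-HA-FLAG replicate 1, 16 of the 32 were negative. The neighbours were not matched to the members on level, and the pattern was noticed after the values were seen.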
